A study of Bombyx mori with 4 samples.

Results

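BmRT1, BmRT2, BmRT11 and BmRT12 are transposons of the silkworm, Bombyx mori, that the authors' transposon library places in the Gypsy family of long terminal repeat (LTR) retrotransposons. They were taken by name from a table of RNA bound to BmVasa and make up 4 of its 18596 sequences, 4 of its 76 LTR/Gypsy sequences and 4 of its 23 sequences named BmRT. The members were chosen on their reads in these same libraries, because their changes between the groups went in opposite directions. Their levels and changes are therefore given below as a description with no test. The intervals beside them are 95% intervals that cover counting error alone.

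BmVasa is the silkworm homologue of the DEAD-box RNA helicase Vasa, and BmN4 is a cultured germ cell line from silkworm ovary. FAST-iCLIP, the assay used, reads the fragments of RNA that stay attached to BmVasa after UV crosslinking and immunoprecipitation. All 4 samples were BmN4 cells treated with siRNA, 2 with siRNA to luciferase (Luc KD, the control) and 2 with siRNA to the piRNA factor Spindle-E (Spn-E KD), whose loss was meant to deprive the cells of Siwi loaded with piRNA. The deposited table gives 1 pooled column for each group, so no value below has a replicate check.

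Gypsy elements are relatives of retroviruses. Their RNA is both the template that is copied into DNA by reverse transcriptase and the messenger that encodes the capsid protein Gag and the polyprotein Pol, with its protease, reverse transcriptase, RNase H and integrase. In silkworm germ cells, RNA of transposons is cut by Siwi, a PIWI protein guided by piRNAs, and the pieces are passed to the PIWI protein Ago3 in the granules that BmVasa forms. Spn-E is a helicase needed for the supply of piRNAs, and its own level was not analysed here, since the gene models of the table come without symbols. The groups therefore rest on the labels.

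The pooled Luc KD library held 1012269 genome-mapped reads and the pooled Spn-E KD library 1059323, of which 384001 and 403022 fell in the sense direction on the sequences of the table. All values are raw reads, RPM, in which the authors scaled reads by the genome-mapped depth, or RPKM, which is RPM per kilobase of the sequence. Levels of different elements were ranked by RPKM. Ratios between members and shares were taken from reads unless RPKM is named, and minimum levels were set in RPM. Reads that fitted several sequences were mapped in the authors' random and multiple counting modes, so an element may share reads with near-identical copies and its own count is uncertain to that extent. Reads on an element also depend on how much of its RNA the cells hold, and binding and abundance cannot be told apart in these files.

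The 4 elements were of similar length but of very different level. BmRT1 is 4666 nt long, BmRT2 4564 nt, BmRT11 3673 nt and BmRT12 4957 nt. For comparison, the 72 other LTR/Gypsy sequences ran from 178 to 7961 nt with a median of 3267 nt. For the 51 of them with a mean of at least 10 RPM the median was 4188 nt, which lies within the range of the members. Together they took 48.6% of the reads on LTR/Gypsy sequences in Luc KD (95% Wilson interval 47.8 to 49.5) against 42.7% in Spn-E KD (41.9 to 43.6), most of it through BmRT2.

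BmRT2 was the most strongly covered Gypsy element in both libraries. It received 5562 reads in Luc KD against 5188 in Spn-E KD, or 5495 and 4897 RPM. Per length this was 1204 RPKM in Luc KD (95% exact Poisson interval 1172 to 1236) against 1073 RPKM in Spn-E KD (1044 to 1103). The difference between the libraries was small. Its log2 fold change, computed here as log2 of Spn-E KD over Luc KD after adding 1 RPM to each, was −0.17, and the 95% Clopper-Pearson interval of the log2 ratio ran from −0.22 to −0.11. The sign of this value depended on how the libraries were scaled, as described further on. In each library BmRT2 stood alone at the top of the family. Kabuki, the next LTR/Gypsy sequence by RPKM, lay 5.23-fold below it in Luc KD and 3.26-fold below it in Spn-E KD. Of all sequences in the table, 4 had more RPKM than BmRT2 in Luc KD against 6 in Spn-E KD.

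BmRT11 was the only one of the 4 with more reads in Spn-E KD. It received 114 reads in Luc KD against 400 in Spn-E KD, or 113 and 378 RPM. The corresponding RPKM values were 30.7 (95% exact Poisson interval 25.3 to 36.8) and 103 (93.0 to 113). BmRT11 was 3.35-fold higher in the Spn-E KD library, a log2 fold change of 1.74 (interval of the log2 ratio 1.44 to 2.06). In Luc KD it ranked 16th by RPKM among the 76 LTR/Gypsy sequences, and in Spn-E KD it ranked 9th. It had the highest log2 fold change of the 55 LTR/Gypsy sequences that averaged at least 10 RPM. Among all 4727 sequences with that mean, 17 had a higher one, and none of those 17 had more than 181 reads in either library. Of the 171 other sequences with a mean RPM at or above that of BmRT11, 0 had a higher log2 fold change. That bar is the mean of BmRT11 itself, which its reads in Spn-E KD raise, so the count only describes its place.

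BmRT1 differed in the other direction. It received 242 reads in Luc KD against 131 in Spn-E KD, or 239 and 124 RPM. Its level was 51.2 RPKM in Luc KD (95% exact Poisson interval 45.0 to 58.1) against 26.5 RPKM in Spn-E KD (22.2 to 31.4). It was 1.93-fold lower in the Spn-E KD library, with a log2 fold change of −0.95 (interval of the log2 ratio −1.27 to −0.64). By RPKM it ranked 12th of the 76 LTR/Gypsy sequences in Luc KD and 16th in Spn-E KD. BmRT1 was close to its neighbours in that order, since BmRT6, just above it in both libraries, had 61.9 RPKM (56.6 to 67.6) and 30.4 RPKM (26.8 to 34.3), with intervals that overlapped those of BmRT1.

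BmRT12 was the most thinly covered of the 4. It received 67 reads in Luc KD against 34 in Spn-E KD, or 66.2 and 32.1 RPM. Its RPKM was 13.4 in Luc KD (95% exact Poisson interval 10.3 to 17.0) against 6.47 in Spn-E KD (4.48 to 9.05). These intervals were wide. BmRT12 was 2.06-fold lower in Spn-E KD, with a log2 fold change of −1.02. The interval of its log2 ratio, from −1.68 to −0.43, was wider than that of any other member and covers a difference well below and well above 2-fold. It ranked 33rd of the LTR/Gypsy sequences by RPKM in Luc KD and 54th in Spn-E KD, and at these ranks the sequences next to it had overlapping intervals. Among the 55 LTR/Gypsy sequences that averaged at least 10 RPM, BmRT12 ranked 32nd in Luc KD and 45th in Spn-E KD.

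**Figure D1:**
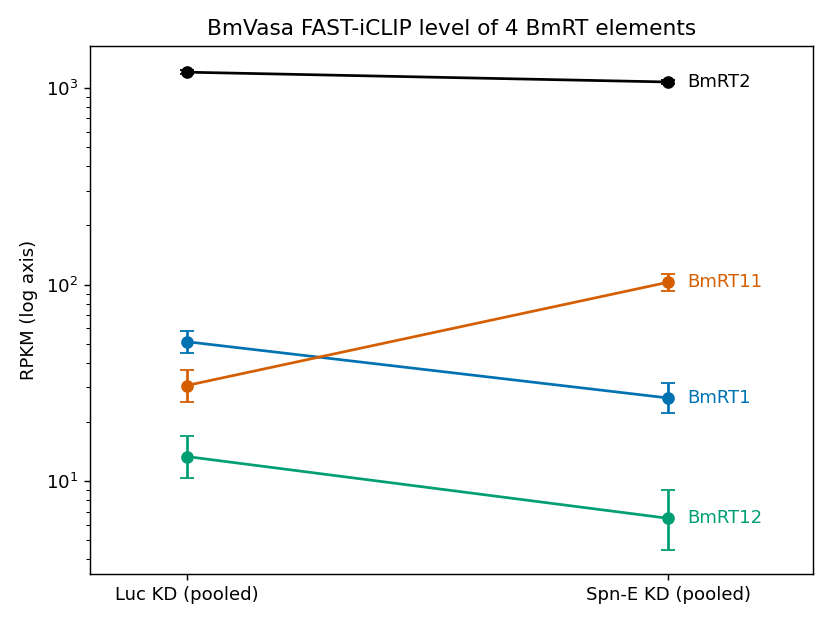
Level of the 4 BmRT elements in RPKM (log axis) in the pooled Luc KD and Spn-E KD libraries, with 95% exact Poisson intervals that cover counting error only. The line of BmRT11 climbs from 30.7 to 103 RPKM and crosses that of BmRT1, which goes from 51.2 to 26.5 RPKM, while BmRT2 stays at 1073 RPKM or above and BmRT12 at 13.4 RPKM or below.

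The order of the elements by RPKM thus differed between the libraries at a single place. In Luc KD the order was BmRT2, BmRT1, BmRT11 and BmRT12, and in Spn-E KD BmRT11 stood above BmRT1. Neighbours in both orders had Poisson intervals that did not overlap. BmRT1 had 1.67 times the RPKM of BmRT11 in Luc KD, whereas BmRT11 had 3.88 times the RPKM of BmRT1 in Spn-E KD. BmRT12 was the lowest in both.

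**Figure D2:**
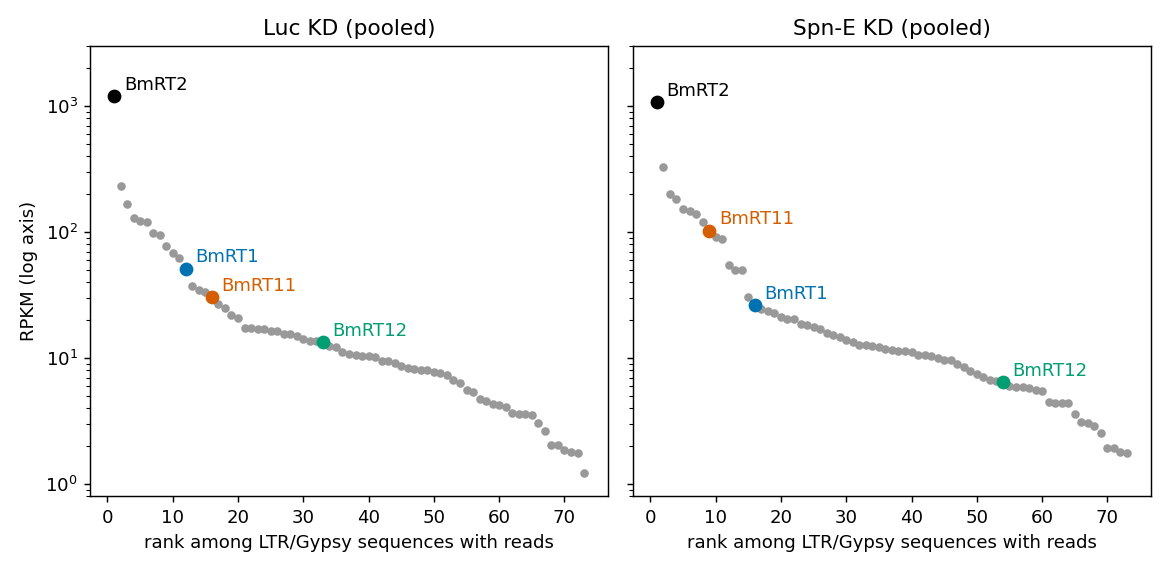
RPKM (log axis) of the LTR/Gypsy sequences with reads, ordered by rank, in the pooled Luc KD and Spn-E KD libraries, with the 4 BmRT elements in colour. BmRT2 is ranked 1st in both panels, BmRT11 moves from rank 16 to 9, BmRT1 from 12 to 16 and BmRT12 from 33 to 54.

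Ratios between members within a library do not depend on the depth or scaling of the libraries. For all 6 pairs, the difference between the libraries in the ratio of reads is given with its exact conditional interval. As the members were chosen for their opposite changes, these values describe sizes only. The ratio of BmRT11 to BmRT1 was 0.471 in Luc KD against 3.05 in Spn-E KD, a 6.48-fold difference, or 2.70 on the log2 scale (interval 2.25 to 3.14). The ratio of BmRT11 to BmRT2 was 3.76-fold higher in Spn-E KD, a log2 difference of 1.91 (1.60 to 2.23). Against BmRT12 the difference was of similar size to that against BmRT1, since the ratio of BmRT12 to BmRT11 was 0.588 in Luc KD against 0.085 in Spn-E KD, a log2 difference of −2.79 (−3.50 to −2.09).

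BmRT1 and BmRT12 kept nearly the same proportion to each other. The ratio of BmRT12 to BmRT1 was 0.277 in Luc KD against 0.260 in Spn-E KD, a log2 difference of −0.093 (interval −0.81 to 0.61). This interval still allows the ratio to be lower in Spn-E KD by up to 0.81, or higher by up to 0.61, on the log2 scale. Both were lower in Spn-E KD relative to BmRT2. The ratio of BmRT2 to BmRT1 differed by 0.79 on the log2 scale (0.47 to 1.11), and the ratio of BmRT12 to BmRT2 by −0.88 (−1.52 to −0.26). BmRT2 thus lay between BmRT11 on one side and BmRT1 and BmRT12 on the other, whatever the scaling.

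These differences were next set against the rest of the Gypsy family. Of the 72 other LTR/Gypsy sequences, 51 had a mean of at least 10 RPM over the libraries and were tested, a minimum that all 4 members also passed, while the other 21 were too thinly covered. Reads were compared by an exact binomial test, two-sided and adjusted by Benjamini-Hochberg over the 4727 tested sequences, which sets against each other the 2 pooled libraries, not the conditions. It called 8 of the 51 other Gypsy sequences higher and 5 lower in Spn-E KD, and 38 were not called. Over all tested sequences, 3.74% were called higher and 8.23% lower, so that higher ones made up 31.3% of calls, a share that lay between 52.9% and 69.4% when the libraries were scaled without BmTE_RM5-571 on gene-library reads, by trimmed mean of M-values (TMM) or to a median. The calls among the other Gypsy sequences rest on counting error. With edgeR's exact test and an assumed biological coefficient of variation of 0.2 they were 0 and 0. Over all 4727 tested sequences that test called 0 higher and 8 lower.

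The median log2 fold change of the 51 other Gypsy sequences was 0.088, with quartiles of −0.30 and 0.56, beside a median of 0.024 for all 1183 tested transposons, of which 11.6% were called higher and 11.0% lower, and of −0.24 for all tested sequences, most of them protein-coding. Their values ran from −1.21 to 0.86. BmRT11, at 1.74, lay above this whole range, whereas BmRT1, BmRT2 and BmRT12 lay within it. A difference of at least 2-fold towards Spn-E KD was seen in 0 of the 51 and in 3.13% of all tested sequences, and of the members in BmRT11 only. At least 2-fold towards Luc KD were 3 of the 51, 9.54% of all tested sequences and, of the members, BmRT12, with BmRT1 just short of it. Of the 1183 tested transposons, 78 were at least 2-fold higher in Spn-E KD and 97 at least 2-fold lower. These counts depended on the scaling, and when centred on protein-coding sequences 8 of the 51 were at least 2-fold higher and 0 lower, beside 7.62% and 4.25% of all tested sequences. BmRT11 was at least 2-fold higher under every scaling run, and BmRT12 at least 2-fold lower only under the authors' scaling and on all gene-library reads. Among the 55 Gypsy sequences above the minimum, 3 had a lower log2 fold change than BmRT12 and 4 a lower one than BmRT1.

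**Figure D3:**
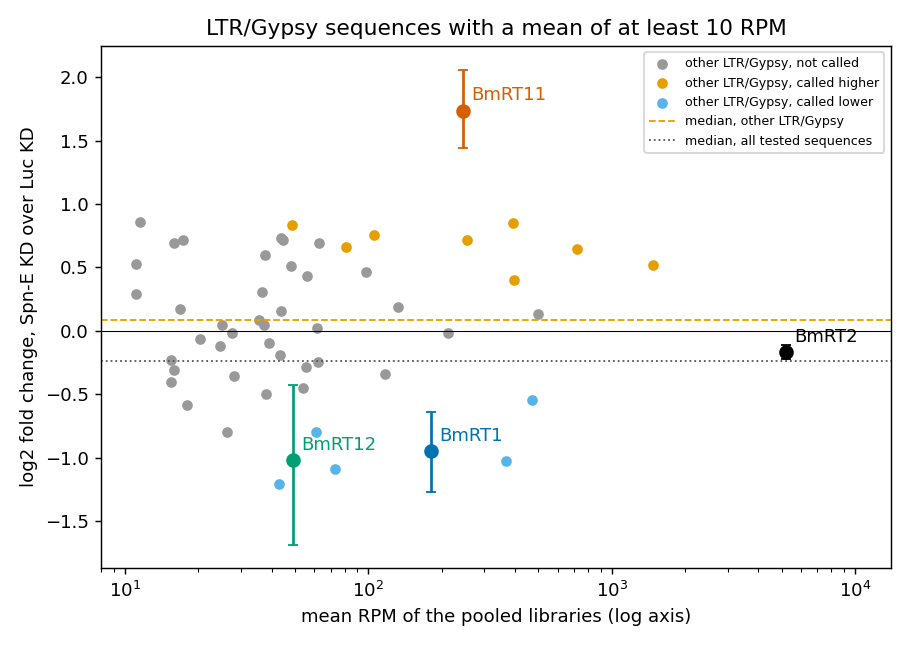
Log2 fold change (Spn-E KD over Luc KD, 1 RPM added) of the 55 LTR/Gypsy sequences that averaged at least 10 RPM, against that mean (log axis). Coloured and grey points are the 51 other sequences by their call in the exact binomial test, large points are the 4 members with the 95% interval of the log2 ratio, and the lines mark the medians of 0.088 for the other Gypsy sequences and −0.24 for all tested sequences. BmRT11 at 1.74 lies above the other 54 points.

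Nearness to a member was measured over its levels in both libraries, so a near sequence had a similar ratio between them by construction. The 5 other Gypsy sequences that were called lower included the nearest ones to BmRT1 and BmRT12. BmRT6 received 499 reads in Luc KD against 256 in Spn-E KD (log2 fold change −1.03) and was the nearest Gypsy sequence to BmRT1, at a distance of 0.34 in log2 RPKM over the 2 pooled libraries. BmTE_RM6-170, with 61 and 27 reads and a log2 fold change of −1.21, was the nearest to BmRT12 at a distance of 0.14. The remaining 3 were named after their values were seen. Gypsy-4_BM-I had 101 and 49 reads, Rikishi_Kabuki_type 79 and 47, and BmTE_RM6-9737 566 and 406.

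The next nearest sequences were farther away. BmTE_RM5-1338 lay 0.97 from BmRT1, with 27.1 RPKM in Luc KD against 21.4 in Spn-E KD, and Karate lay 0.39 from BmRT12, with 10.6 and 7.44 RPKM. Neither was called. For BmRT11 the nearest Gypsy sequence was BmTE_RM6-3336, at a distance of 0.91, which went from 33.6 to 54.9 RPKM. BmTE_RM5-906, with 37.0 and 50.2 RPKM, followed at 1.07, and neither of these was called. BmRT2 had no close neighbour. Kabuki, the nearest, was 2.93 away, with 230.03 and 329 RPKM, and BmTE_RM6-6875 was 3.83 away, with 166 and 183 RPKM.

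Of the 3 most strongly covered Gypsy sequences after BmRT2, 2 were called higher. The test calls a larger share of deeply covered sequences. With the minimum set at a mean of 50 RPM, it called 139 of 863 sequences higher and 253 lower. These included 8 and 4 of the 22 other Gypsy sequences above that minimum. At a minimum of 10 RPM it called 177 and 389 of 4727. Kabuki was called higher, with 1236 reads in Luc KD against 1849 in Spn-E KD and a log2 fold change of 0.52. BmTE_RM6-2827 was called higher as well, with 195 and 336 reads and a log2 fold change of 0.72. BmTE_RM6-6875, with 482 and 554 reads and a log2 fold change of 0.14, was not called. Of the 8 called higher, the largest log2 fold change was 0.85 in BmTE_RM6-4418, with 284 and 537 reads, and Noguchi, with 570 and 935 reads, had 0.65. Both were named after their values were seen.

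Besides the 4 members, 6 LTR/Gypsy sequences carry this name, of which 5 had the mean of 10 RPM. Of all tested transposons, the test called 11.6% higher and 11.0% lower, and of all tested sequences 3.74% and 8.23%. It called 0 of the 5 BmRT sequences higher and 1 lower, BmRT6. The other 4 tested sequences were BmRT5 with 10 and 13 reads, BmRT10 with 42 and 49, BmRT13 with 26 and 25, and BmRT26 with 33 and 43. BmRT9, with 8 and 9 reads, was below the minimum. For each of these 5 sequences the interval of the log2 ratio included 0. At so few reads a fall as large as that of BmRT1 could not be told from none for BmRT5, BmRT9 and BmRT13. Nor could a rise of that size for BmRT5, BmRT9 and BmRT26.

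**Figure D4:**
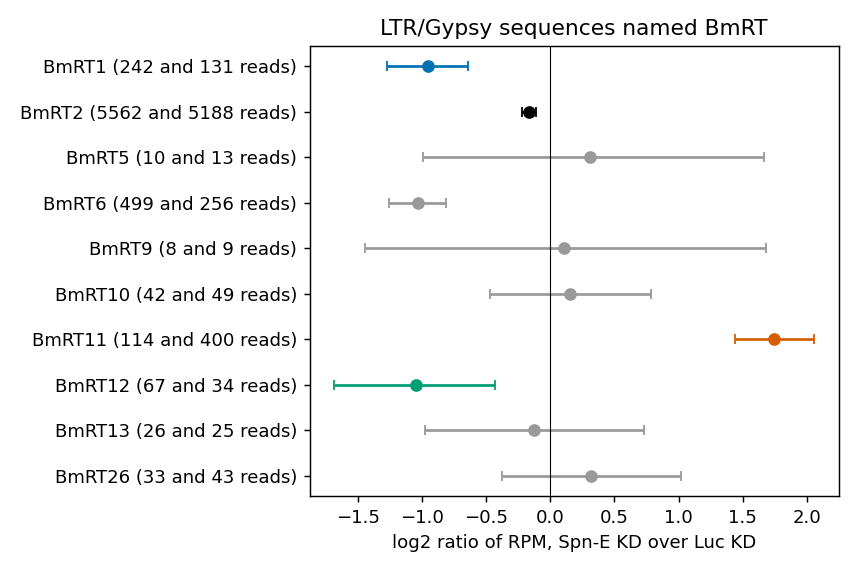
Log2 ratio of RPM (Spn-E KD over Luc KD, nothing added) of the 10 LTR/Gypsy sequences named BmRT, with 95% Clopper-Pearson intervals and the reads in Luc KD and Spn-E KD beside each name. The intervals of BmRT1, BmRT2, BmRT6 and BmRT12 lie below 0, that of BmRT11 lies above 0, and the other 5 include 0.

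All 76 LTR/Gypsy sequences received 12305 reads in Luc KD against 13469 in Spn-E KD, which was 3.20% (95% Wilson interval 3.15 to 3.26) and 3.34% (3.29 to 3.40) of the reads on all sequences. The log2 ratio of their summed RPM was 0.065 (95% Clopper-Pearson interval 0.030 to 0.10). Without BmRT2 it was 0.23 (0.18 to 0.28). Without BmRT11 it was 0.035, with an interval from −0.0009 to 0.071 that included 0. This was not particular to BmRT11, since without Kabuki it was 0.0045 (−0.033 to 0.042) and without Noguchi, picked after its values were seen, 0.030 (−0.0070 to 0.066). These summed ratios hold under the authors' scaling. Another scaling shifts all of them alike, by up to 0.30, so whether an interval includes 0 depends on it.

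The difference in reads, Spn-E KD minus Luc KD, was −374 for BmRT2, −111 for BmRT1, −33 for BmRT12 and 286 for BmRT11. The 4 members together went from 5985 to 5753 reads, and the 72 other sequences from 6320 to 7716. As a share of the Gypsy reads, BmRT2 took 45.2% in Luc KD (95% Wilson interval 44.3 to 46.1) against 38.5% in Spn-E KD (37.7 to 39.3). BmRT11 took 0.926% (0.772 to 1.11) and 2.97% (2.70 to 3.27). BmRT1 took 1.97% (1.74 to 2.23) and 0.973% (0.820 to 1.15), and BmRT12 0.544% (0.429 to 0.691) and 0.252% (0.181 to 0.353). Each member made up between 1.53% and 2.07% of the summed length of the 76 sequences. BmRT2 was therefore far above its share of length in both libraries, BmRT12 below it in both, and BmRT11 below it in Luc KD and above it in Spn-E KD.

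The direction of BmRT2 depended on the scaling, and those of the other 3 did not in any alternative run. One unclassified transposon, BmTE_RM5-571, takes a large part of the reads, and whether it is counted in the depth moves every fold change. The log2 fold change of BmRT2 was −0.17 when scaled to genome-mapped reads, 0.0037 when scaled to the reads on the table without BmTE_RM5-571, 0.062 under TMM scaling, and 0.072 and 0.13 when centred on the median of all tested and of protein-coding sequences. Over the 8 alternatives, BmRT11 stayed between 1.70 and 2.03, BmRT1 between −0.95 and −0.65, and BmRT12 between −1.04 and −0.72.

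**Figure D5:**
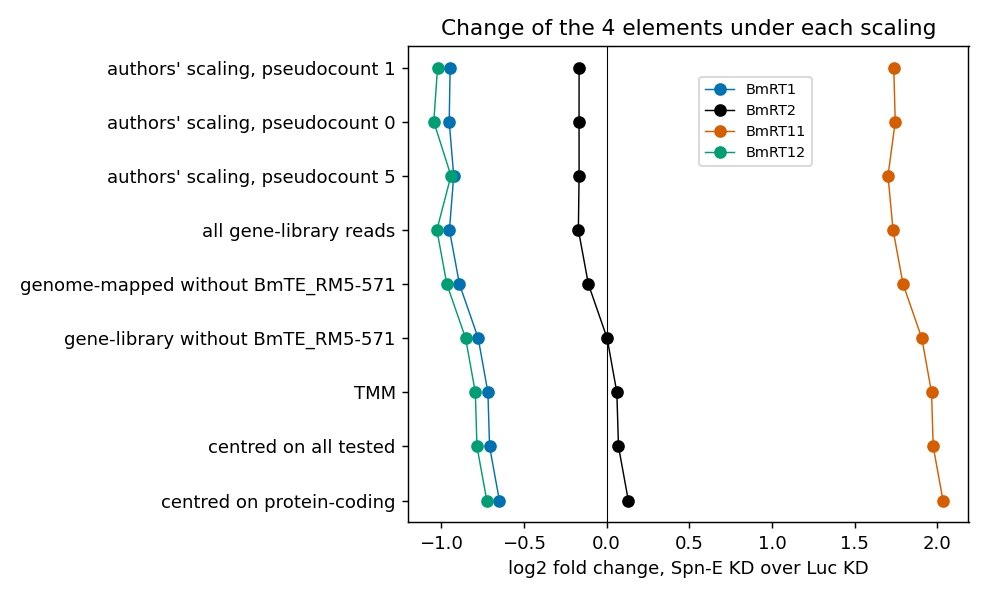
Log2 fold change (Spn-E KD over Luc KD) of the 4 BmRT elements with each pseudocount and under each scaling of the libraries. The values of a member shift together with the scaling, BmRT2 crosses 0, and BmRT11 stays above 1.7 while BmRT1 and BmRT12 stay below −0.6.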

How the data were processed

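FAST-iCLIP of BmVasa was performed in BmN4 cells, with 2 samples each of Luc KD and Spn-E KD. According to the methods and the submitters' processing notes, adaptors were trimmed (Cutadapt 4.0), PCR duplicates collapsed by random barcode, and reads aligned to a SilkBase silkworm assembly (STAR 2.7.9a) and then to a library of gene models and transposons (Bowtie 1.3.1), both in random and multiple counting modes. The deposited counts are sense reads per sequence (SAMtools 1.15), with both replicates merged by the authors. The deposited RPM values were scaled by the authors to genome-mapped reads, and the deposited RPKM values divide them by length in kb.

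Because the columns are pooled, edgeR's quasi-likelihood test could not be used and an exact binomial test on reads (threshold 0.05, expected share from genome-mapped reads) took its place. Pseudocounts, minimum levels, library scalings and an assumed variation between libraries (edgeR) were tried as alternatives. Sequences named besides the members were the 2 LTR/Gypsy sequences nearest to each member in log2 RPKM, the 3 others with the highest RPKM, and other Gypsy sequences named BmRT. Members and lists were chosen with earlier results of these data known. Intervals cover counting error only. A fixed 3 reads, set as an approximate limit for a count of 0, equal 2.96 RPM in Luc KD against 2.83 RPM in Spn-E KD. The two-sided exact Poisson interval of a count of 0 reaches somewhat higher. Of the 4 member names, 0 were found in the RefSeq gene table used here (ASM3026992v2), so positions and sequences were not used here. Python 3.11.15, scipy 1.17.1, R 4.3.3 and edgeR 4.0.16 were used.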

Additional observations from a re-analysis of the deposited data

How the results depend on the processing

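No paired analysis was possible because each column merges both replicates, and so none could be left out either. Scaling to genome-mapped reads without BmTE_RM5-571 was chosen after the data were seen. BmRT2 reversed to 0.0037 (gene-library reads without BmTE_RM5-571), 0.062 (TMM), 0.072 (centred on all tested sequences) and 0.13 (centred on protein-coding sequences), and was −0.11 with genome-mapped reads without BmTE_RM5-571. A factor common to all sequences shifts every log2 fold change alike by construction, by up to 0.30 here. BmRT1, BmRT11 and BmRT12 stayed within their counting intervals under all alternatives, and the median of the other Gypsy sequences stayed positive, from 0.079 to 0.39.

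The 8 other Gypsy sequences called higher and 5 called lower became 13 and 4 on the base of gene-library reads minus BmTE_RM5-571, when centred on all tested sequences and under TMM, and 13 and 3 when centred on protein-coding sequences. Over all 4727 tested sequences, the 177 higher and 389 lower became 252 and 224 on gene-library reads minus BmTE_RM5-571. They were 278 and 168 centred on all tested sequences, 274 and 178 under TMM, and 315 and 139 centred on protein-coding sequences. With edgeR's exact test and the biological coefficient of variation set to 0.1, the calls among the other Gypsy sequences were 1 and 3 (13 at an unadjusted p under 0.05). With 0.2 they were 0 and 0 (4 at an unadjusted p under 0.05). Of all 4727 tested sequences, 74 were called higher and 117 lower with 0.1, and 0 and 8 with 0.2. The variation between replicates was not measured here. The other Gypsy sequences at least 2-fold higher or lower, recounted after the data were seen, were 0 and 3 under the authors' scaling, 3 and 1 on gene-library reads without BmTE_RM5-571, 3 and 0 under TMM or centred on all tested sequences, and 8 and 0 centred on protein-coding sequences. The shares of all tested sequences were 3.13% and 9.54% under the authors' scaling and 5.44% and 6.22% on gene-library reads without BmTE_RM5-571. They were 6.16% and 5.18% under TMM, 6.47% and 5.12% centred on all tested sequences, and 7.62% and 4.25% centred on protein-coding sequences. Over all tested sequences, higher ones made up 31.3% of calls under the authors' scaling, 52.9% on gene-library reads without BmTE_RM5-571, 60.6% under TMM, 62.3% when centred on all tested sequences and 69.4% when centred on protein-coding sequences.

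The shares move with their base by construction. Of Gypsy reads without BmRT2, BmRT1 took 3.59% in Luc KD against 1.58% in Spn-E KD, BmRT11 1.69% and 4.83%, and BmRT12 0.994% and 0.411%. Of summed Gypsy RPKM, BmRT1 took 1.64% and 0.775%, BmRT2 38.6% and 31.4%, and BmRT12 0.428% in Luc KD.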

Other observations

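The 13 sequences named BmRT that belong to other classes were examined beside the Gypsy members, and those given here were picked after their values were seen. All 13 had a mean of at least 10 RPM, and the exact binomial test called 1 of them higher and 0 lower in Spn-E KD. Of all tested transposons it called 11.6% higher and 11.0% lower, and of all tested sequences 3.74% and 8.23%. Counts this small do not set the group apart from these shares. The call was BmRT20, an LTR/Pao element of 6448 nt, with 67 reads in Luc KD against 155 in Spn-E KD, or 10.3 and 22.7 RPKM, a log2 fold change of 1.13. The log2 ratio of BmRT20 had a 95% Clopper-Pearson interval of 0.72 to 1.58, which overlapped the 1.44 to 2.06 of BmRT11. The LTR/Copia elements BmRT16, with 122 and 103 reads, and BmRT17, with 121 and 163 reads, were covered about as well as BmRT11 in Luc KD and were not called.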
